A study of Rattus norvegicus with 56 samples.

Results

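The genes described here are 10 rat regulators of G protein signalling (RGS), namely Rgs2, Rgs4, Rgs5, Rgs7, Rgs8, Rgs9, Rgs10, Rgs12, Rgs14 and Rgs16, measured in hippocampus and in parietal cortex from rats that had received magnetic stimulation of the brain or a sham procedure. They were chosen by name: a probe was a member when the RefSeq transcript accession that the array gives for it belongs to one of these genes. That rule gave 16 probes of the 45598 distinct probes on the array and 10 genes of the 16581 with a named probe. Rgs10 had 3 probes, Rgs4, Rgs5, Rgs8 and Rgs12 had 2 each, and the other members had 1. All 16 probes were well above background on all 56 arrays, except the Rgs9 probe, which was so on 55, and all 10 genes passed the filter on low values in both regions.

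RNA was measured with a one-colour Agilent array in 24 male Long-Evans rats, each giving 1 hippocampal and 1 cortical sample taken 48 h after the procedure. Ages were 6 to 7 months in the young groups and 26 to 27 months in the aged groups. Learning in the Morris water maze, set against that of young rats, divided the aged animals into unimpaired (AU) and impaired (AI) ones. The stimulated animals received intermittent theta burst stimulation (iTBS), short bursts of magnetic pulses from a coil over the head, and in sham animals the coil was held away from the head. The groups were Y_Sham (4 young animals), Y_iTBS (4 young), AU_Sham (4), AU_iTBS (5), AI_Sham (4) and AI_iTBS (3). Every animal, sham included, was lightly anaesthetised with isoflurane and sedated with dexmedetomidine, an agonist of the Gi-coupled alpha2 adrenergic receptor, and the sedation was reversed with Antisedan. Per the study's methods, the tissue was microdissected neocortex and dorsal hippocampus from under the coil's centre. Each sample held all the cells of its piece, so fewer cells of a type and less RNA per cell cannot be told apart in any value below.

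Heterotrimeric G proteins carry signals from receptors at the cell surface. The G alpha subunit is active while it holds GTP, and RGS proteins end the signal by speeding up the hydrolysis of that GTP. The small R4 members (Rgs2, Rgs4, Rgs5, Rgs8 and Rgs16) are mostly an RGS domain with a short amino-terminal helix; Rgs2 prefers Gq, and its gene responds to neuronal activity, whereas Rgs4 acts on both Gi and Gq and is rich in cortical neurons. The R7 members Rgs7 and Rgs9 work in a complex with the G protein beta subunit Gnb5, and Rgs9 is best known from the striatum and the retina. The R12 members are Rgs10, which is rich in microglia, and the multidomain scaffolds Rgs12 and Rgs14, the latter a known marker of hippocampal area CA2. Rgs5 is a marker of pericytes, the cells that wrap brain capillaries.

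Rgs2, Rgs4, Rgs5, Rgs7, Rgs8 and Rgs16 all lie on chromosome 13, where Rgs5 and Rgs4 are next to each other, as are Rgs8 and Rgs16. Rgs9 lies on chromosome 10 beside the G alpha gene Gna13, Rgs10 on chromosome 1, Rgs12 on chromosome 14 and Rgs14 on chromosome 17. The 250 bases before the start site are shown for the 4 members with the clearest regional pattern among the R4 and R12 members, of which Rgs4 and Rgs2 were higher in the cortex and Rgs14 and Rgs10 higher in the hippocampus. They are RefSeq sequences of the GRCr8 assembly, each read 5′ to 3′ along the gene, and all 4 genes lie on the minus strand. The windows are chr13:84475885-84476134 for Rgs4, chr13:58352667-58352916 for Rgs2, chr17:9268234-9268483 for Rgs14 and chr1:192418078-192418327 for Rgs10. Capitals mark TATAAA, the TATA box, and TGACG, the core of the element that the cyclic AMP-responsive factor CREB binds, or its reverse complement CGTCA.
Rgs4: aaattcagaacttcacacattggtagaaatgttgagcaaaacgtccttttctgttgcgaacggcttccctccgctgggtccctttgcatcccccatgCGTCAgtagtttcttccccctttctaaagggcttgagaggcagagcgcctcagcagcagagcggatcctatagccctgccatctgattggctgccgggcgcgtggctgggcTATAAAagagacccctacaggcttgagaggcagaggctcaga
Rgs2: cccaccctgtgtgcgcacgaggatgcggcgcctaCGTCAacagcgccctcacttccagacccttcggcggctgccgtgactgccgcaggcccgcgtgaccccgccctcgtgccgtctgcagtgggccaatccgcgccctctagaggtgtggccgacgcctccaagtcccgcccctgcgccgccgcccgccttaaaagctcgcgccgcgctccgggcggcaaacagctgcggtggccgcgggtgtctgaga
Rgs14: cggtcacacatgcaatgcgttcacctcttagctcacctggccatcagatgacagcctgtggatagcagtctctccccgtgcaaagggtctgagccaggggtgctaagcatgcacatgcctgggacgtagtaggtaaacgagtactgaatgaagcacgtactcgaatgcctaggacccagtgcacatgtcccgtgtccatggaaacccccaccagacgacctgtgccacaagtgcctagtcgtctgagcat
Rgs10: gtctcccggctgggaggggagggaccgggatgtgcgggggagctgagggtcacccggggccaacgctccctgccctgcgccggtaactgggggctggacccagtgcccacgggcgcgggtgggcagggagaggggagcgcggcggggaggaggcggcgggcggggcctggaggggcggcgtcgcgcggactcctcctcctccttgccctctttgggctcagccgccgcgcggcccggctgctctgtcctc

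These motifs were searched on both strands in the window from 250 bases before to 50 bases after the start site, which RefSeq gave for all 10 members and 33469 times in all. Rgs4 was the only member with TATAAA, which lay at positions -42 to -37 from its start site and was present in 14.2% of all windows. TGACG was found in Rgs4 (positions -153 to -149) and in Rgs2 (-216 to -212), both times on the opposite strand, and in 21.2% of all windows. No member window held the full palindrome TGACGTCA, which contains TGACG and was present in 1.83% of windows. The GC box GGGCGG was found in 7 of the 10 members (Rgs2, Rgs5, Rgs7, Rgs9, Rgs10, Rgs12 and Rgs16) against 33.1% of all windows, and the E-box CACGTG in Rgs7 alone against 6.42%. The windows ranged in G and C content from 52.7% in Rgs4 to 77.3% in Rgs7, where the median of all windows was 51.67%. Rgs10 (76.3%) and Rgs2 (69.7%) were among the rich ones and Rgs14 (55.3%) was not. A match of letters is a description of the window and not a bound site.

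All levels below are normalised log2 signals, so that a difference of 1 is a factor of 2 in signal, and each probe was compared with itself only, because probes of different genes differ in brightness for reasons other than the amount of RNA. The tissue labels were set against marker genes. In sham animals, 6 of 8 markers of areas CA1 and CA3 were higher in the hippocampus, among them Fibcd1 by 4.33, and 6 of 8 markers of cortical neurons were lower there, among them Rorb by -0.98. The other 2 were higher there, Bcl11b by 1.79, and the summed signal of the 8 cortical markers was also higher in the hippocampus (14.78 to 15.09 in sham animals) than in the cortex (14.30 to 14.55), so that list as a sum did not mark the cortex. Of the arrays, 1 carried labels of different groups and was left out. A repeat of the AI_iTBS 2 cortical array correlated at -0.206 with its own animal's array and at 0.972 with that of AI_Sham 2 (Pearson's r over 59 probes that varied strongly and alike in both regions of the other animals) and was left out too, while the other 6 repeats correlated with their own at 0.969 to 0.984. The cortical array of Y_Sham 4 held a patch of dim spots that covers the Rgs9 probe, and the cortical Rgs9 values below are given with and without that animal.

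**Figure D1:**
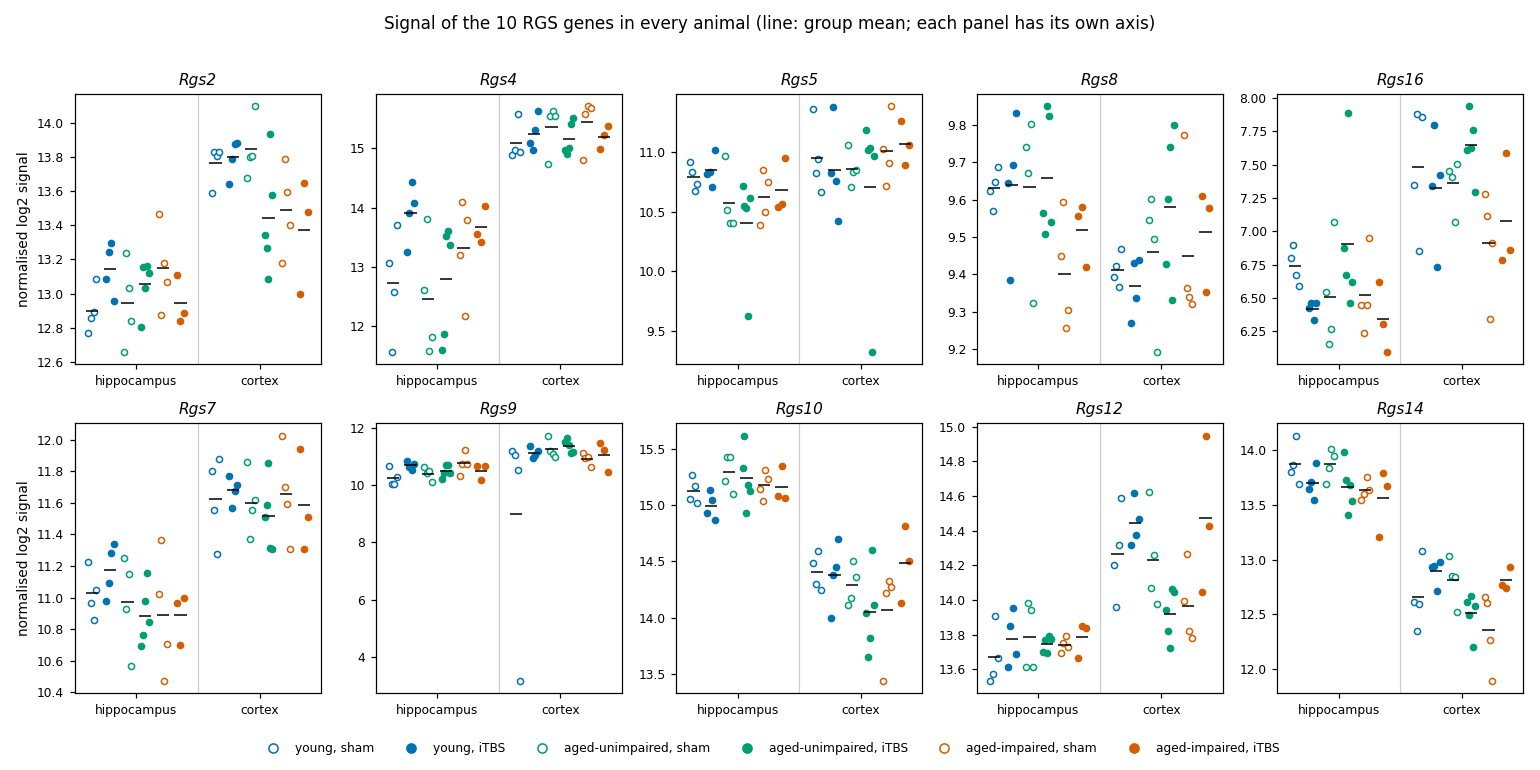
Normalised log2 signal of the 10 RGS genes in each of 24 animals, 1 panel per gene with its own axis, hippocampus on the left and cortex on the right of each panel; points are animals, coloured by age and cognitive group, open for sham and filled for iTBS, and lines are group means. Rgs4, Rgs10 and Rgs14 separate by region, 1 cortical Rgs9 point lies at 3.15, and 1 AU_iTBS animal has the lowest Rgs5 in both regions.

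The clearest pattern was regional. In the 12 sham animals, each hippocampal sample was compared with the cortical sample of the same animal, and 8 of the 10 members differed at an adjusted p under 0.05 (limma, Benjamini-Hochberg over 33720 probes), where 36% of all probes did. The share was therefore above the background, but regional differences of this kind are common on the array. The shares are also not like for like. Each member is given by its brightest curated probe, and the background counts every probe that passed the filter, dim ones included. Lower in the hippocampus were 6 members (Rgs2, Rgs4, Rgs5, Rgs7, Rgs12 and Rgs16), against 16.7% of all probes, and higher there were 2 (Rgs10 and Rgs14), against 19.2%. The median difference over the 10 members was -0.35, and over all probes 0.03.

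Rgs4, the R4 member of cortical neurons, differed most. Among sham animals its hippocampal signal ran from 11.56 to 14.09 with a median of 12.84, and its cortical signal from 14.73 to 15.72 with a median of 15.55. The ranges of the regions did not overlap, and the hippocampus was the lower in 12 of 12 sham animals, as it was in 12 of 12 iTBS animals. The mean difference was -2.47 (SE 0.234, adjusted p = 3.11e-08 by limma), a 5.56-fold higher cortical signal, and the other Rgs4 probe gave -2.63. The size varied widely between sham animals, from -4.05 in AU_Sham 3 to -1.24 in Y_Sham 4. Rgs4 varied more in the hippocampus, where the SD over all 24 animals was 0.907, than in the cortex, where it was 0.323.

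Rgs2, the R4 member that prefers Gq, ran from 12.66 to 13.46 (median 12.96) in the sham hippocampus and from 13.18 to 14.10 (median 13.79) in the sham cortex. It was lower in the hippocampus in 11 of 12 sham animals, with a mean difference of -0.70 (SE 0.0969, adjusted p = 6.43e-06 by limma). The exception was AI_Sham 1, with 13.46 in the hippocampus, the highest of 24, and 13.18 in the cortex. That animal was the only AI_Sham animal scanned after the first day, and cortical Rgs2 was lower on later days within 6 of 6 groups. It also had the highest summed signal of 10 activity-regulated genes in both regions, at 15.91 in the hippocampus and 17.24 in the cortex. The part of the scan day or of these genes in its Rgs2 values was not tested. Over all 24 animals Rgs2 did not follow that list, with r = 0.117 in the hippocampus and -0.0124 in the cortex (permutation p = 0.587 and 0.955, adjusted 0.794 and 0.979; Spearman's rho -0.0522 and -0.0470).

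Rgs16, another R4 member, ran from 6.15 to 7.07 (median 6.56) in the sham hippocampus and from 6.34 to 7.88 (median 7.31) in the sham cortex. Its ranges overlapped, and the difference of -0.66 (SE 0.141, adjusted p = 0.000855 by limma) had the same sign in 10 of 12 animals. It was -0.33 with the normal-exponential background. The pericyte marker Rgs5 ran from 10.39 to 10.97 in the sham hippocampus and from 10.67 to 11.39 in the sham cortex. Its difference was small, at -0.28 (SE 0.0973, adjusted p = 0.0304 by limma, 9 of 12 animals), and its other probe, at -0.19, did not pass (adjusted p = 0.249). The Rgs5 call also did not hold when Y_Sham 1 or 3, AU_Sham 3 or 4, or AI_Sham 1, 3 or 4 was left out (7 of the 12 sham animals, -0.25 to -0.28, adjusted p = 0.0503 to 0.0736), when the pairing by animal was dropped (adjusted p = 0.146) or when only animals scanned on the first day were used (adjusted p = 0.177). Of the 9 pericyte and smooth muscle markers, 4 were lower in the hippocampus and none higher.

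Rgs8, the remaining R4 member, ran from 9.26 to 9.80 in the sham hippocampus and from 9.19 to 9.77 in the sham cortex. These ranges were nearly the same, and the difference of 0.12 (SE 0.0666, adjusted p = 0.186 by limma) did not pass, nor did that of its other probe (0.27, adjusted p = 0.112). With the background corrected by another method, the normal-exponential model, it passed at 0.18 (adjusted p = 0.0347). Rgs8 and Rgs16 are neighbours on chromosome 13, yet only Rgs16 passed, although this difference between the genes was not tested.

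Among the R7 members, Rgs7 ran from 10.47 to 11.37 (median 10.99) in the sham hippocampus and from 11.28 to 12.03 (median 11.61) in the sham cortex. The ranges overlapped only at their ends, and Rgs7 was lower in the hippocampus in 12 of 12 sham and 12 of 12 iTBS animals, by -0.66 (SE 0.0836, adjusted p = 1.92e-06 by limma). Rgs9 ran from 10.03 to 11.22 in the sham hippocampus, and in the sham cortex from 10.54 to 11.74 in 11 animals and at 3.15 in Y_Sham 4. Over all 12 animals its difference was 0.09 (SE 0.445, adjusted p = 0.897 by limma), although it was lower in the hippocampus in 9 of 12. Without Y_Sham 4 the difference was -0.56 and passed (adjusted p = 0.000652 by limma, lower in 9 of 11), and among iTBS animals Rgs9 was lower in the hippocampus in 11 of 12. Of 4 genes for partners of R7 proteins with a probe (Gnb5, Rgs7bp, Rgs9bp and Gpr158), 1 was lower in the hippocampus, Gpr158, an orphan receptor that binds Rgs7, by -0.45 (adjusted p = 0.000100).

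The R12 members parted. Rgs14, the CA2 marker, ran from 13.55 to 14.13 (median 13.77) in the sham hippocampus and from 11.89 to 13.08 (median 12.61) in the sham cortex. The ranges did not overlap, and the hippocampus was higher in 12 of 12 sham and 12 of 12 iTBS animals, by 1.18 (SE 0.0967, adjusted p = 3.76e-09 by limma), a factor of 2.27. Of 5 other CA2 markers, 2 were higher in the hippocampus, Amigo2 by 1.16 and Necab2 by 1.53, and none was lower. Rgs10 ran from 15.02 to 15.43 (median 15.20) in the sham hippocampus and from 13.43 to 14.59 (median 14.29) in the sham cortex, again without overlap. It was higher in the hippocampus in 12 of 12 sham and 12 of 12 iTBS animals, by 0.95 (SE 0.102, adjusted p = 2.06e-07 by limma), a factor of 1.93, and its other probes gave 0.87 and 1.01. Of 8 microglial markers, 3 were higher in the hippocampus, C1qa by 0.39, Itgam by 0.67 and Tmem119 by 0.49, and none was lower.

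Rgs12 went the other way. It ran from 13.53 to 13.98 (median 13.71) in the sham hippocampus and from 13.78 to 14.62 (median 14.14) in the sham cortex, and was lower in the hippocampus in 12 of 12 sham and 12 of 12 iTBS animals. The difference was -0.42 (SE 0.0806, adjusted p = 0.000294 by limma). A predicted Rgs12 transcript, with a probe of its own, differed by 0.01 (adjusted p = 0.938), so that the regional difference belongs to the curated transcript's probe alone. After removing group means, the signals of these probes were hardly related across the 24 animals in the hippocampus (r = 0.00854), and r was 0.341 in the cortex.

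Of all probes, 5.89% were higher and 6.2% lower in the hippocampus in every sham animal. Among the members, 2 were higher in every sham animal (Rgs10 and Rgs14) and 3 lower (Rgs4, Rgs7 and Rgs12).

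**Figure D2:**
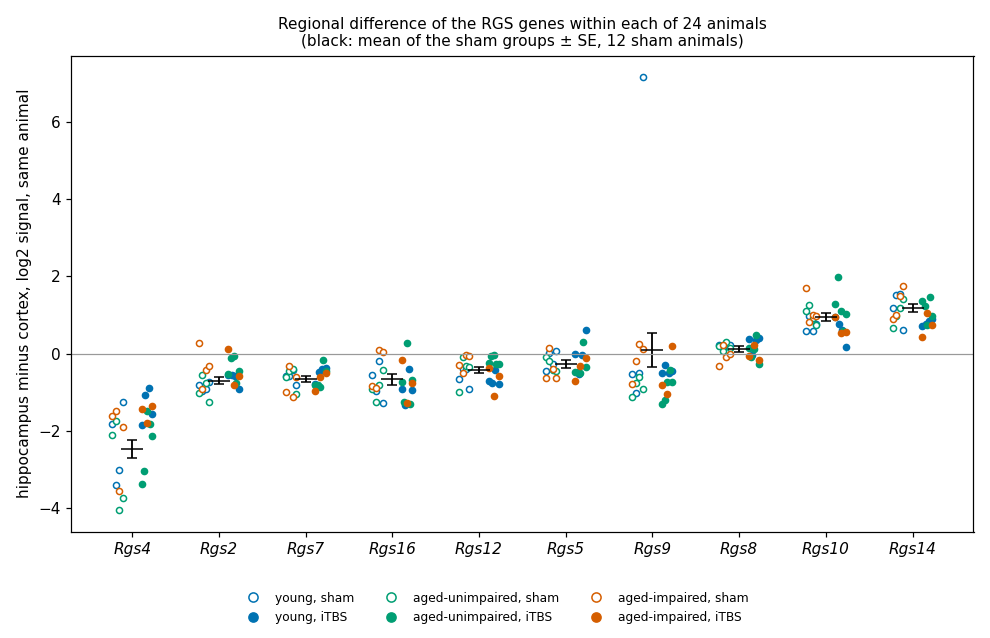
Hippocampus minus cortex difference in log2 signal within each of 24 animals for the 10 RGS genes, ordered by the sham mean; open points are sham and filled points iTBS animals, coloured by age and cognitive group, and black bars are the mean of the sham groups with its standard error (12 sham animals). All points of Rgs4, Rgs7 and Rgs12 lie below 0 and all points of Rgs10 and Rgs14 above it, and the 1 high Rgs9 point is Y_Sham 4.

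The same comparison within each group had 3 to 5 animals, and fewer probes passed. In Y_Sham 7 members passed (19.5% of all probes did), in Y_iTBS 7 (17%), in AU_Sham 7 (18.4%), in AU_iTBS 5 (24.3%), in AI_Sham 4 (11%) and in AI_iTBS 4 (7.03%). Rgs7, Rgs10 and Rgs14 passed in all 6 groups. The Rgs4 difference was -2.37 in Y_Sham, -2.91 in AU_Sham and -2.14 in AI_Sham, and -1.34 in Y_iTBS, -2.37 in AU_iTBS and -1.53 in AI_iTBS. It passed in all groups but AI_iTBS (adjusted p = 0.0516). For no member did the change of the regional difference between young and aged sham animals pass (1 probe of 33720 passed, 0.00297%). The lowest unadjusted p of a member other than Rgs9 was 0.133 by limma, for Rgs10.

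Counts for other genes of the pathway are set beside the 19.2% of all probes that were higher and the 16.7% that were lower in the hippocampus, and those of the RGS domain and G alpha lists lay near these shares. Of 15 other genes with an RGS domain, 3 were higher and 4 lower in the hippocampus, with a median difference of 0.10. Those with the smallest adjusted p were Rgs17 at -0.62, Rgs18 at -2.06 and Rgs20 at -0.29. Of 15 G alpha genes, 4 were higher and 2 lower, led by Gna14, a Gq-class subunit, at 1.57, Gnat1 at -1.23 and Gnal at 0.71. The G protein-gated potassium channels, which RGS proteins help to close, were split, with Kcnj6 at 1.02 and Kcnj9 at -0.92. Of 18 receptors that couple to Gi or Gq, 5 were higher and 7 lower, among them the serotonin receptors Htr1a at 2.87 and Htr2a at -1.74 and the alpha2A adrenergic receptor Adra2a at -1.08. Of 10 activity-regulated genes, 9 were lower in the hippocampus and none was higher, with a median of -1.04. Of 9 markers of striatal neurons, where Rgs9 is best known, 3 were lower in the hippocampus, including Tac1 at -1.40, and 1 was higher. Among markers of other cells and fields, 3 of 5 endothelial genes and 1 of 3 thalamic genes were lower in the hippocampus and none higher, 2 of 5 dentate gyrus genes were higher and none lower, and 6 of 8 choroid plexus genes were higher and 1 lower.

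The question of the study was the effect of stimulation, and for the RGS genes no difference between iTBS and sham passed. In none of the 10 comparisons (young, AU, AI, all aged and all animals, in each region) did a member reach an adjusted p under 0.05 by limma. The background was 0% of 32417 probes in each hippocampal comparison and 0% of 32603 in each cortical comparison except AI, where it was 0.00613% (2 probes). At an unadjusted p under 0.05 there were 2 members in the young hippocampus (4.54% of all probes), 1 in the AU cortex (8.39%) and 2 in the AI cortex (4.08%). There were none in the AU, AI, aged and joint hippocampus (2.29%, 1.88%, 2.46% and 2.8% of all probes) or in the young, aged and joint cortex (2.71%, 2.92% and 2.55%). The standard errors of the young differences were 0.104 to 0.556 in the hippocampus and, leaving out Rgs9, 0.131 to 0.302 in the cortex.

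Hippocampal Rgs4 was the member furthest from 0 in the young animals. The signal was 13.07, 11.56, 12.57 and 13.70 in Y_Sham and 13.24, 13.91, 14.42 and 14.07 in Y_iTBS. The iTBS values were mostly the higher, but the groups overlapped, because Y_Sham 4 was above Y_iTBS 1. The difference was 1.19 (SE 0.556, unadjusted p = 0.0452, adjusted p = 0.930 by limma), and it was 0.80 without Y_Sham 2 and 1.51 without Y_Sham 4. In AU animals the signal was 12.61, 13.81, 11.57 and 11.81 under sham and 11.59, 11.86, 13.52, 13.60 and 13.36 under iTBS. In AI animals it was 13.19, 14.09, 12.16 and 13.78 under sham and 13.56, 13.42 and 14.03 under iTBS. Both aged pairs of groups overlapped widely. Over all 24 animals the difference was 0.63 (unadjusted p = 0.0671, adjusted p = 1.00). In the cortex of young animals Rgs4 was 14.89, 14.97, 15.58 and 14.94 under sham and 15.08, 14.97, 15.30 and 15.63 under iTBS, a difference of 0.15 (SE 0.236). The hippocampal and the cortical effect in young animals differed by 1.03 (SE 0.572, unadjusted p = 0.0859, adjusted p = 1.00), and the young and aged hippocampal effects by -0.84 (aged minus young, SE 0.684, unadjusted p = 0.235).

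In the young hippocampus Rgs9 was 10.68, 10.03, 10.04 and 10.30 under sham and 10.85, 10.65, 10.55 and 10.74 under iTBS. The groups overlapped only through Y_Sham 1, and the difference was 0.43 (SE 0.180, unadjusted p = 0.0256, adjusted p = 0.930 by limma). The aged hippocampal difference was -0.09, and the aged minus young effect was -0.52 (SE 0.221, unadjusted p = 0.0295, adjusted p = 0.799), the 1 member at an unadjusted p under 0.05 in that comparison (4.31% of all probes; none and 3.22% in the cortex). In the young cortex Rgs9 was 11.21, 11.05, 10.54 and 3.15 under sham and 11.36, 10.94, 11.05 and 11.20 under iTBS. The difference of 2.15 there (SE 1.07, adjusted p = 1.00) came from Y_Sham 4, without which it was 0.20.

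Rgs16 in the young hippocampus was 6.80, 6.90, 6.67 and 6.59 under sham and 6.42, 6.46, 6.33 and 6.46 under iTBS. The groups did not overlap, as was so in the same direction for 1.57% of all probes, but the difference of -0.32 (SE 0.243, unadjusted p = 0.205, adjusted p = 0.930 by limma) was within the spread that the 24 animals share. In the AU hippocampus Rgs16 was 6.54, 6.15, 6.26 and 7.07 under sham and 6.87, 6.67, 7.88, 6.46 and 6.62 under iTBS, with overlap.

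In the AU cortex the lowest unadjusted p belonged to Rgs2. It was 13.68, 13.80, 13.81 and 14.10 under sham and 13.34, 13.26, 13.09, 13.93 and 13.57 under iTBS. All iTBS values but that of AU_iTBS 4 were below the sham values. The difference was -0.41 (SE 0.166, unadjusted p = 0.0240, adjusted p = 0.579 by limma), and it was -0.13 among the animals scanned on the first day. The AI animals had 13.18, 13.79, 13.59 and 13.40 under sham and 13.00, 13.65 and 13.48 under iTBS, and the young had 13.59 to 13.83 and 13.64 to 13.88, all overlapping.

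In the AI cortex the pair Rgs12 and Rgs14 stood highest. Rgs14 was 12.66, 12.61, 12.27 and 11.89 in AI_Sham and 12.77, 12.74 and 12.94 in AI_iTBS, without overlap, as in 2.36% of all probes in that direction. Its difference was 0.46 (SE 0.187, unadjusted p = 0.0235, adjusted p = 1.00 by limma), and it was 0.30 without AI_Sham 4 and 0.28 with the normal-exponential background. Rgs12 was 13.99, 14.26, 13.82 and 13.78 in AI_Sham and 14.05, 14.95 and 14.43 in AI_iTBS, which overlapped. Its difference was 0.51 (SE 0.197, unadjusted p = 0.0172, adjusted p = 1.00), 0.32 with the mean of its probes and 0.27 without AI_iTBS 2. The repeat array labelled as the cortex of that animal matched AI_Sham 2, and which of these labels is wrong is not known, so both AI cortical differences include arrays whose labels are in doubt. Without AI_Sham 2 the Rgs12 difference was 0.61 and the Rgs14 difference 0.54, and without AI_iTBS 2 the Rgs14 difference was 0.49. In the AU cortex the same genes stood at -0.30 (Rgs14) and -0.31 (Rgs12), and neither passed. All other iTBS differences of members within the young, AU and AI animals were between -0.26 and 0.42.

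**Figure D3:**
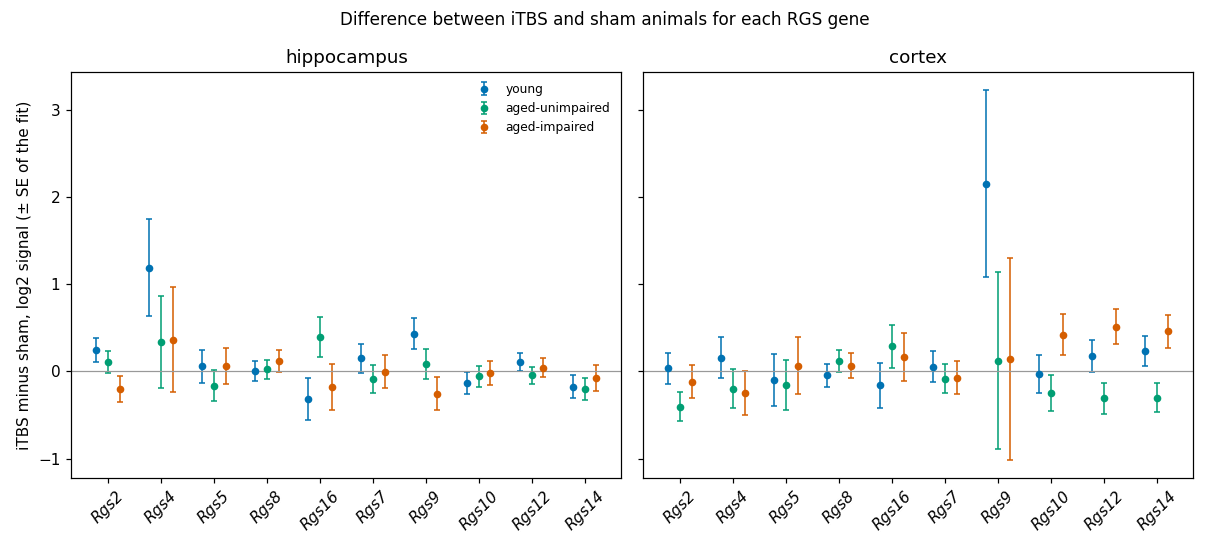
Difference in log2 signal between iTBS and sham animals for each RGS gene in the hippocampus (left) and cortex (right), by age and cognitive group; points are group differences and bars the standard error of the fit. No difference passed at an adjusted p under 0.05. The wide cortical Rgs9 bars reflect the Y_Sham 4 value of 3.15, and the widest hippocampal bars are those of Rgs4.

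Neither age nor cognitive status moved a member past the threshold. Between aged and young animals, sham and iTBS together, 0.512% of hippocampal and 0.402% of cortical probes passed, and no member did. Among sham animals alone it was 0.00308% and 0.104%, again with no member. At an unadjusted p under 0.05 there was 1 member in each region over all animals (13.3% of hippocampal and 14.3% of cortical probes), and in sham animals none in the hippocampus (8.22%) and 1 in the cortex (9.47%). In the hippocampus Rgs5 stood lowest in aged animals, at -0.25 (SE 0.117, unadjusted p = 0.0475, adjusted p = 0.369 by limma). In the young hippocampus Rgs5 was 10.92, 10.84, 10.67 and 10.73 under sham and 10.82, 10.84, 10.71 and 11.02 under iTBS. In the aged hippocampus it was between 10.39 and 10.97 in 15 animals and 9.62 in AU_iTBS 4, without which the difference was -0.20. Rgs10 stood next, at 0.16 (SE 0.0774, unadjusted p = 0.0547, adjusted p = 0.385). In the cortex it was Rgs2, at -0.24 (SE 0.108, unadjusted p = 0.0361, adjusted p = 0.325), with 13.59 to 13.88 in the 8 young animals and 13.00 to 14.10 in the 16 aged. The Rgs2 values of aged animals spread to both sides of the young ones, and the difference was -0.12 among the animals scanned on the first day. The cortical Rgs9 difference between aged and young sham animals, 2.10 (unadjusted p = 0.0342, adjusted p = 0.499), was 0.16 without Y_Sham 4.

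Between impaired and unimpaired aged animals, sham and iTBS together, 0.00308% of hippocampal probes (1 probe) and 0% of cortical probes passed, and no member, and in sham animals alone it was 0% in both regions. At an unadjusted p under 0.05 there were 2 members in the hippocampus (6.62% of all probes) and 1 in the cortex (9.68%), and in sham animals none in the hippocampus (4.03%) and 1 in the cortex (6.44%). Hippocampal Rgs4 stood 0.87 higher in impaired animals (SE 0.399, unadjusted p = 0.0415, adjusted p = 0.744 by limma), with 12.16 to 14.09 in 7 impaired animals and 11.57 to 13.81 in 9 unimpaired ones. The unimpaired animals held 4 of the 5 values below 12 in the whole hippocampal series, and the other was Y_Sham 2. Hippocampal Rgs8 stood at -0.19 (SE 0.0847, unadjusted p = 0.0398, adjusted p = 0.743), and at -0.11 with the mean of its probes. Cortical Rgs16 was 7.28, 7.12, 6.34 and 6.91 in AI_Sham and 6.78, 7.59 and 6.86 in AI_iTBS, against 7.45, 7.41, 7.07 and 7.51 in AU_Sham and 7.61, 7.94, 7.62, 7.76 and 7.30 in AU_iTBS. Its difference was -0.51 (SE 0.186, unadjusted p = 0.0127, adjusted p = 0.424), and -0.30 with the normal-exponential background. Cortical Rgs14 in sham animals stood at -0.45 (SE 0.173, unadjusted p = 0.0161, adjusted p = 0.678), and at -0.30 without AI_Sham 4, with 13.03, 12.85, 12.84 and 12.52 in AU_Sham beside the AI_Sham values above. The groups overlapped for each of these genes.

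Beyond the groups, the members varied from animal to animal. The relation of each member to the summed signal of 16 gene lists was computed over the 24 animals in each region, 320 relations in all with 100000 permutations each, and 25 had an adjusted p under 0.05 for Pearson's r, of which 13 also did for Spearman's rho. These relations share the arrays and their scan days, so those described below are given within scan days too. In a summed signal the brightest genes weigh most, so a relation to a list need not hold for each of its genes. The relations were not tested gene by gene. Rgs5 ran with the pericyte and smooth muscle list, whose 9 genes were all above background. In the cortex r was 0.835 (adjusted permutation p = 0.00192) and rho 0.656 (adjusted p = 0.0201), and in the hippocampus r was 0.806 (adjusted p = 0.00675) and rho 0.550 (adjusted p = 0.0677).

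The animal AU_iTBS 4 had the lowest Rgs5 signal in both regions, 9.62 in the hippocampus, where the next animal had 10.39, and 9.33 in the cortex, where the next had 10.42. The other Rgs5 probe was lowest in it too, at 7.87 and 7.28. The pericyte and smooth muscle list was also lowest in this animal, at 12.85 in the hippocampus against 13.40 to 13.85 in the other 23, and at 12.50 in the cortex against 13.27 to 14.66. Without the 2 animals whose list signal was farthest from the median, r was 0.463 in the hippocampus and 0.561 in the cortex. Within the first scan day it was 0.928 and 0.871 (15 animals), and within the later days 0.441 and 0.576 (9 animals). After removing group means, the regions of an animal had r = 0.666 for Rgs5 over 24 animals, but 0.111 without AU_iTBS 4, so that this value rests on that animal.

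In the hippocampus Rgs14 ran with the CA1 and CA3 list, with r = 0.724 (adjusted permutation p = 0.00480), rho = 0.756 (adjusted p = 0.00213), r = 0.783 without the 2 farthest animals, and 0.718 and 0.709 within the first and the later scan days. With the CA2 list the relation was weaker, at r = 0.560 (adjusted p = 0.0503) and rho = 0.592 (adjusted p = 0.0473), and r = 0.392 without the 2 farthest and 0.636 and 0.603 within scan days. Rgs10 followed the CA1 and CA3 list as well (r = 0.707, adjusted p = 0.00503, rho = 0.690, adjusted p = 0.0132, 0.751 without the farthest 2, 0.481 and 0.925 within days). Its relation to the microglial list was not past the threshold in either region, with r = 0.396 in the hippocampus (adjusted p = 0.240, rho 0.492, 0.537 and 0.331 within scan days) and 0.408 in the cortex (adjusted p = 0.222, rho 0.381, 0.550 and 0.543 within scan days).

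Hippocampal Rgs4 ran opposite to the hippocampal lists. Against the CA1 and CA3 list r was -0.631 (adjusted permutation p = 0.0258, rho -0.514, adjusted p = 0.115), and it was -0.518 without the 2 farthest animals and -0.732 and -0.873 within the scan days. Against the dentate gyrus list r was -0.599 (adjusted p = 0.0133, rho -0.482, adjusted p = 0.144, -0.674 and -0.903 within scan days), and against the CA2 list -0.597 (adjusted p = 0.0410, rho -0.565, adjusted p = 0.0567, -0.631 and -0.552 within scan days). The 3 animals with the highest CA1 and CA3 signal, between 17.49 and 17.58, had Rgs4 at 11.59, 11.86 and 11.81, all among the 5 lowest. The dentate gyrus list was highest in AU_Sham 4, at 15.68, where the next animal had 14.97, and the Rgs4 signal of AU_Sham 4 was 11.81. The part that the dissected share of each hippocampal field has in the Rgs4 values was not tested. The genes whose hippocampal signal was most like that of Rgs4 over 24 animals were Chrna4, a nicotinic receptor subunit (r = 0.973), Myh3 and Klhdc8a (0.963), and on the first scan day alone these were 0.973, 0.960 and 0.959.

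**Figure D4:**
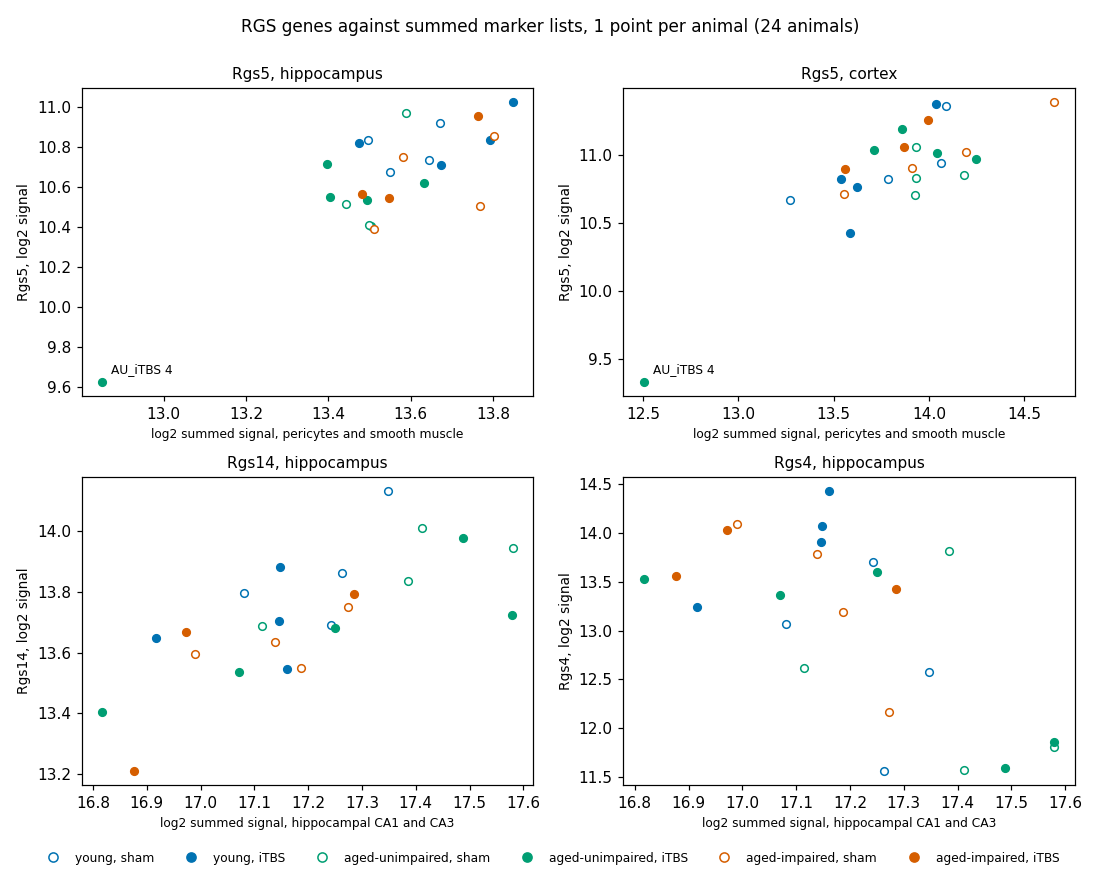
Normalised log2 signal of Rgs5 (top, hippocampus and cortex) against the summed signal of 9 pericyte and smooth muscle genes, and of hippocampal Rgs14 and Rgs4 (bottom) against the summed signal of 8 CA1 and CA3 genes, 1 point per animal (24 animals), open for sham and filled for iTBS. AU_iTBS 4 is lowest on both axes in the upper panels, and in the lower panels Rgs14 runs upward and Rgs4 downward with the list.

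Other relations were to lists of G protein signalling genes. Hippocampal Rgs8, an R4 member, followed the summed signal of the list of partners of R7 proteins (Gnb5, Rgs7bp, Rgs9bp and Gpr158). For this r was 0.835 (adjusted permutation p = 0.00107) and rho 0.857 (adjusted p = 0.00160). Without the 2 farthest animals r was 0.842, and within scan days 0.908 and 0.725. These are values of 1 Rgs8 probe. The other Rgs8 probe had r = 0.274 with it in the hippocampus after removing group means, and its relation to the list was not tested. Cortical Rgs2 followed the summed signal of the 18 Gi and Gq coupled receptors with r = 0.814 (adjusted p = 0.00107) and rho = 0.818 (adjusted p = 0.00160). Here r was 0.762 without the farthest 2 and 0.707 and 0.725 within scan days. Cortical Rgs4 and the other RGS domain genes had r = 0.707 (adjusted p = 0.00640, rho 0.688, adjusted p = 0.0132) over all animals but only 0.198 and 0.275 within scan days, so this relation did not hold within days.

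Between members, 7 of 90 pairs had an adjusted permutation p under 0.05 for r. Cortical Rgs12 and Rgs14 had r = 0.672 (adjusted p = 0.0243) and rho = 0.739 (adjusted p = 0.00495), and 0.724 without the 2 farthest animals and 0.728 and 0.750 within scan days, and r was 0.469 after removing group means. Hippocampal Rgs7 and Rgs8 had r = 0.646 (adjusted p = 0.0243, rho 0.597, adjusted p = 0.0572), 0.481 without the 2 farthest and 0.712 and 0.380 within days, and 0.729 after removing group means. Cortical Rgs2 and Rgs10 had r = 0.640 (adjusted p = 0.0243, rho 0.608, adjusted p = 0.0572), 0.644 without the 2 farthest, but 0.174 and 0.561 within days, and 0.770 after removing group means. The other 4 pairs ran in opposite directions, and none of them passed for rho. They were Rgs4 and Rgs10 in the hippocampus (r = -0.571, adjusted p = 0.0428, rho -0.517, -0.512 without the 2 farthest, -0.484 and -0.799 within days) and, in the cortex, Rgs2 and Rgs8 (r = -0.611, adjusted p = 0.0396, rho -0.488, -0.517 without the 2 farthest, -0.389 and -0.729 within days), Rgs4 and Rgs7 (r = -0.589, adjusted p = 0.0428, rho -0.485, -0.485 without the 2 farthest, -0.284 and -0.303 within days) and Rgs8 and Rgs10 (r = -0.581, adjusted p = 0.0428, rho -0.444, -0.464 without the 2 farthest, -0.366 and -0.678 within days). Cortical Rgs2 and Rgs5 passed for rho alone, at -0.729 (adjusted permutation p = 0.00495), with r = -0.502 (adjusted p = 0.0847). Rgs4 and Rgs5, neighbours on chromosome 13, were not among the 7 pairs in either region. Pairs with Rgs4, Rgs8, Rgs10 or Rgs12 rest on 1 probe of that gene and were not tested with its other probes.

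Several cortical values differed by scan day. Leaving repeat arrays aside, the arrays of 15 animals were scanned on the first day and those of 9 animals later. Every group had animals of both kinds, and both regions of an animal fell on the same side. A value averaged with a repeat array was given the day of the animal's first array. Cortical Rgs4 was 14.94 to 15.72 (mean 15.44) on the first day and 14.73 to 15.08 (mean 14.93) later, with a mean difference within groups of 0.51 that had the same sign in 6 of 6 groups. AI_Sham 1 (14.81) and AU_Sham 1 (14.73), the lowest of their groups, were the only animals of those groups scanned later. Cortical Rgs10 (0.44) and Rgs2 (0.34) were likewise higher on the first day within 6 of 6 groups, and Rgs7 was lower (-0.32, 6 of 6 groups), as was Rgs9 (-1.09, and -0.47 without Y_Sham 4, each with the same sign in 6 of 6 groups). Among hippocampal values only Rgs12 had the same sign in 6 of 6 groups, at 0.17. With scan day as a block no member passed in any within-region comparison, and its part in the animals' differences was not tested further.

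**Figure D5:**
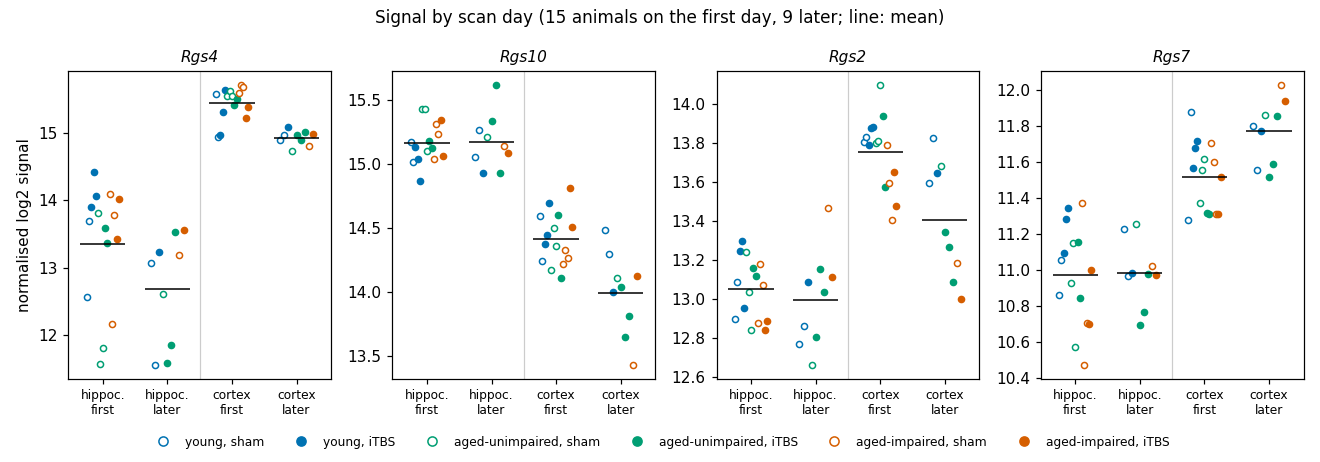
Normalised log2 signal of Rgs4, Rgs10, Rgs2 and Rgs7 by region and scan day, 1 point per animal (15 animals scanned on the first day, 9 later), coloured by age and cognitive group, open for sham and filled for iTBS; lines are means. In the cortex the first-day mean is above the later one for Rgs4 (15.44 against 14.93), Rgs10 and Rgs2 and below it for Rgs7, while the hippocampal points of Rgs10, Rgs2 and Rgs7 mix.

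The Rgs9 value of Y_Sham 4 was traced on the array. Its deviation from the cortical median of that spot was -8.02, while the other 23 cortical values lay between 10.47 and 11.74. On this array, 142 of 19399 bright probes (median log2 signal over 8) lay 4 or more below their cortical median, against 0 to 11 on the other cortical arrays and at most 4 on the hippocampal ones. Of the 82 bright spots within 6 rows and columns of the Rgs9 spot, 18 (21.95%) were that low, and their median deviation was -1.02. Around the other member spots of that array the median deviation was not below -0.307, and on the other 47 first arrays it was -0.61 to 0.386 around any member spot. Up to 9 spots around another member spot of that array were also 4 or more below their cortical median. On the other 47 first arrays at most 2 spots around a member spot were that low. Genes that looked most like cortical Rgs9 over 24 animals shared the low value: Tomm20 (r = 0.984) was 8.04 in Y_Sham 4 and 13.83 to 14.27 elsewhere, and its r was 0.362 without that animal. Without it, the most similar genes were Celf2 (0.851), Myo5a (0.836) and Aanat (0.823) over 23 animals.

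For the other members, the genes with the most similar signal over 24 animals are given as descriptions, since all share the same arrays. Rgs14 was most like Neurod2 (r = 0.888), Ppp3ca (0.877) and Kcnip2 (0.844) in the hippocampus and Cacna2d1 (0.885) in the cortex. Among the genes most like Rgs5 were Olfml2a (0.777) and Map3k7cl (0.768) in the hippocampus and Foxs1 (0.878) and Adap2 (0.871) in the cortex. Cortical Rgs2 was most like Ranbp6 (0.928, and 0.862 on the first scan day). Cortical Rgs12 was most like Ak5 (0.894), Rxrg (0.891) and the histamine receptor Hrh3 (0.888). Hippocampal Rgs12 was most like Nup62 (0.904), hippocampal Rgs7 like Coq10a (0.855) and hippocampal Rgs8 like Abt1 (0.854). Cortical Rgs10 was most like Rpl36al1 (0.925, and 0.738 on the first scan day), and Rgs16 had its highest values with Zfp395 in the hippocampus (0.759) and Kif26a in the cortex (0.799). Genes with 2 or more probes differed in how well these went together over 24 animals after removing group means. The Rgs5 probes had r = 0.956 in the hippocampus and 0.961 in the cortex. For the Rgs4 probes r was 0.983 and 0.347, and for the Rgs8 probes 0.274 and 0.729. With the Rgs10 probe used here, its other probes had r = 0.955 and 0.481 in the hippocampus and 0.956 and -0.472 in the cortex. Scan-day, list, pair, likeness and single-animal values of Rgs4, Rgs8, Rgs10 and Rgs12 are those of 1 probe each. They were not tested with the other probes.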

How the data were processed

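The labels and the study's methods describe total RNA on a one-colour Agilent rat array (Feature Extraction 12.0.3.1). The authors deposited scanner intensity values, whose processed signal is already background-subtracted and was used here, and a table of z-scores, a score per probe and array made by the authors from the log signal, which was used as an alternative.

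The log2 intensity was z-scored over non-control probes on each array, as in the study, then put back on the log2 scale with the arrays' average SD (4.08) and mean (7.45). Copies of a probe were averaged without flagged outlier spots, and repeat arrays were averaged with the first array. Probes well above background in at least 3 of 24 animals were tested. The 6 group means of a region were fitted with limma 3.58.1 in R 4.3.3 (18 residual degrees of freedom), and regions were compared on the difference within each animal. P-values are two-sided, with Benjamini-Hochberg adjustment over all probes tested. A gene with several probes is given by its brightest curated RefSeq probe, and all 10 members are named. Other genes are named by the 3 smallest adjusted p per list where any passed, or by the 3 highest Pearson's r with a member. Some genes that this rule names are not reported here. Of the array's probes, 46.3% had a gene symbol. The members and lists were chosen with earlier results of these data known.

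The replicate number of a label did not pair animals across groups in general (correlations of -0.282 to 0.401), but the 3 AI cortical pairs were each over 0.1 (0.369, 0.389 and 0.140). Alternatives were other scalings and backgrounds, no filter, first arrays only, the mean of a gene's probes, replicate, scan day and slide blocks, a rebuild of the study's selection rule and leaving out each animal. The files hold no mean signal column, so the normal-exponential correction (offset 50) used the median signal. The steps were tested on simulated data with Python 3.11.15 and R. The number of arrays limits the precision.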

Additional observations from a re-analysis of the deposited data

Results flagged for a closer look

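Within groups of 4 or 5 animals, 100 gene and region combinations were searched for an animal far from the others by Dixon's test, and 11 had one, or 11%, where chance gives about 5%. Of these, 3 belong to AU_iTBS 4 or Y_Sham 4: Rgs5 was 9.624 in the hippocampus of AU_iTBS 4 (nearest 10.54) and 9.328 in its cortex (nearest 10.97), and cortical Rgs9 was 3.146 in Y_Sham 4 (nearest 10.54). AU_iTBS 4 also had the lowest pericyte and smooth muscle signal in both regions, and the part of this in its Rgs5 values was not tested.

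AI_Sham 1 was far from its group in 3 cortical genes, with Rgs4 at 14.81 (nearest 15.59), Rgs10 at 13.43 (nearest 14.22) and Rgs8 at 9.773 (nearest 9.365). It was the only AI_Sham animal scanned after the first day. The 3 cortical values are of 1 probe per gene, and other probes differed in this animal. Its hippocampus minus cortex difference was 1.71 with the Rgs10 probe used, and 1.28 and 0.58 with the others. For Rgs4 it was -1.61 with the probe used and -2.42 with the other, and for Rgs8 -0.32 and 0.01. Cortical Rgs4 was also far from the rest in AU_Sham 1, at 14.73 (nearest 15.55), and in Y_Sham 3, at 15.58 (nearest 14.97). Cortical Rgs2 was 13.59 in Y_Sham 1 (nearest 13.81), cortical Rgs14 was 12.71 in Y_iTBS 3 (nearest 12.94), and hippocampal Rgs16 was 7.885 in AU_iTBS 3 (nearest 6.872). No difference of effects between young and aged animals or between regions passed an adjusted p under 0.05 for a member.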

How the results depend on the processing

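The count of members with a regional difference in sham animals was 8, and 7 to 9 under the alternatives and under leaving out each animal. The 23 counts of 0 for iTBS, age, cognition and their interactions were 0 under all 616 alternatives, a selection rule rebuilt here from the study's methods included, under which 59 probes passed in the young hippocampus, 14 in the aged hippocampus, 40 in the young cortex and 20 in the aged cortex. That rebuild differed from the authors' own run, for which the paper lists more changed genes in each of these comparisons. The paper counts genes and the rebuild probes. The paper's methods also name 8 aged rats for this experiment, fewer than the sample labels give, so the sets of animals may differ. The paper's selected genes include Rgs4, given as lower after iTBS in the aged hippocampus. In the rebuild the z-ratio of Rgs4 there, the study's measure of a difference, was 1.04, and Rgs4 was not selected. The cause was not tested, so the count of 0 under the rebuild is not a result of the study's own selection. Of 26 single differences, 2 values changed sign, both for the regional difference of Rgs9: it was -0.11 with the normal-exponential background (-0.1149) and -0.56 without Y_Sham replicate 4 (-0.5629, adjusted p = 0.000652), and leaving out each animal in turn gave -0.5629 to 0.3449. Rgs5 lost its regional call with the mean of its probes (-0.23, adjusted p = 0.0986) and under the settings named with it, with 7 animals left out in turn among them, and Rgs8 gained it with the normal-exponential background. With the replicate number as a block no iTBS call changed and all counts stayed at 0; the AU cortical Rgs2 difference was -0.44 with the block (-0.4387, unadjusted p = 0.0110), and the AI cortical Rgs12 and Rgs14 differences were 0.52 and 0.42. The AU cortical Rgs2 difference was -0.13 on the first scan day, a restriction chosen after seeing the data, and the AI cortical Rgs12 difference was 0.27 without AI_iTBS 2. Animals per group limit the smaller differences, and the within-slide correlation was 0.236 in the hippocampus and 0.348 in the cortex.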

Other observations

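The array that carried labels of 2 groups, a young sham title and an aged iTBS description, was left out of every comparison. Its signal lay inside the range of the 24 hippocampal samples for 9 members, with Rgs4 at 13.51, Rgs10 at 15.10 and Rgs14 at 13.61. Rgs5 was 9.60, just below the lowest hippocampal sample, AU_iTBS 4 with 9.62, and the next lowest sample had 10.39.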
